A study of Homo sapiens with 6 samples.

Results

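Replication-dependent histone genes encode the bulk histones that package newly copied DNA. The 68 genes described here are all RefSeq protein-coding genes of GRCh38.p14 whose symbol is H1-1 to H1-5 or H2AC, H2BC, H3C or H4C followed by a number, of 20050 protein-coding genes in all. Of these, 54 lie on chromosome 6, 13 on chromosome 1 and 1, H4C16, on chromosome 12. By product, 5 encode the linker histone H1, 17 encode H2A, 18 encode H2B, 13 encode H3 and 15 encode H4. The rule uses symbols alone.

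R-loops, in which an RNA strand pairs with 1 strand of the DNA and displaces the other, were mapped with DRIP-seq in SH-SY5Y, a human neuroblastoma cell line. In this assay the S9.6 antibody pulls down DNA-RNA hybrids. The cells carried the lentiviral hairpin shT2 (3 samples) or the lentiviral hairpin shNC3 (3 samples), and cells of TDP-43 stable knockdown were selected with puromycin. The series concerns knockdown of TDP-43, an RNA-binding protein. The labels leave unsaid which hairpin targets it, and the names alone led to the reading used here, with shT2 as knockdown and shNC3 as control. Each hairpin was delivered by an integrating virus, and whether its samples stem from separate infections is not stated. A p-value here thus reflects the spread among these samples, part of which may be technical.

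Genes of this family are short, mostly lack introns, and lie in clusters that cells gather in a nuclear structure called the histone locus body. They are transcribed in S phase, when DNA is copied. Their messages end in a stem-loop in place of a poly(A) tail, and a dedicated machinery that includes SLBP and NPAT makes them. H2A and H2B form a dimer, H3 and H4 form the tetramer at the centre of the nucleosome, and H1 binds the DNA between nucleosomes.

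The peak lists held 49068, 50971 and 50821 peaks in shT2 replicates 1 to 3, and 45390, 42717 and 45014 in shNC3 replicates 1 to 3. Values of samples are given in that replicate order throughout. Depth of the pulldown libraries, recovered from the per-peak values, was 3.31, 3.45 and 3.08 fragments per base in shT2 against 1.79, 1.65 and 1.74 in shNC3, a ratio of 1.90 between the means. Covered bases of 2 lists had a Jaccard index of 0.676 to 0.718 within a hairpin and 0.552 to 0.567 between hairpins. TARDBP, which encodes TDP-43, had 9702, 9573 and 7819 bp under peaks in shT2 against 11725, 10554 and 10239 bp in shNC3 (log2 difference -0.40, SE 0.09, limma adjusted p = 0.0068). The call did not hold in unscaled bases (limma adjusted p = 0.0902) or when a summit fold of 5 was required (limma adjusted p = 0.43), and peaks over TARDBP do not measure its RNA.

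Of the markers of SH-SY5Y's own noradrenergic state, 7 of 8 had a peak in all 6 samples, and TH had none. None of 3 blood cell markers (PTPRC, CD3E, SPI1) had a peak. For the 6 markers of the mesenchymal neuroblastoma state, the summed scaled covered length was 11.07 to 12.98 kb in shT2, against 36.54 to 39.78 kb in shNC3. Of the 5 tested, 3 fell (COL1A1, FOSL1 and PRRX1), FN1 did not pass (limma adjusted p = 0.0719), and VIM had 6935 bp in each of the 6 samples. PRRX1 had no peak in shT2 and was tested through shNC3 alone, so it had to differ. SNAI2 had no peak in any sample. For the noradrenergic list the sums were 88.85 to 96.89 kb in shT2, against 83.3 to 91.22 kb in shNC3, with 2 of 7 tested higher (CHGA, ISL1). Over all protein-coding genes tested, 24.2% were called longer in shT2 and 27.3% shorter. The part of this marker difference, and of the depth difference, in the results on the histone genes was not tested. For depth, the gene calls and sums below were also computed with reduced lists, named here equal depth. This step dropped peaks whose summit would miss the p-value limit at the depth of the shallowest library. Peaks that stayed kept their full length, so covered length itself was not matched for depth.

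The 68 genes were measured by the length of DNA under peaks in the gene's span plus 2 kb on each side, scaled so that all 6 samples had the same total length under peaks. With neighbouring windows merged so that a shared peak counted once, 64.4, 63.7 and 65.5 kb lay under peaks in shT2, against 40.5, 42.0 and 41.7 kb in shNC3. The groups did not overlap, and the ratio of the means was 1.56. A peak was present at 54, 55 and 53 of the 68 genes in shT2 and at 37, 38 and 40 in shNC3, whereas 55.7, 56.8 and 56.1% of all protein-coding genes had a peak in shT2 and 56.8, 55.0 and 56.5% in shNC3. Requiring 200 bp of overlap gave 54, 55 and 52 genes in shT2 and 36, 37 and 40 in shNC3.

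Each gene's difference was tested with limma over all 11784 protein-coding genes with a peak in at least 3 of the 6 samples, on log2(scaled covered bp + 500), a scale that understates the difference of briefly covered genes. Of the 68 histone genes, 55 were tested: coverage was longer in shT2 for 23, shorter for 1, and 31 did not pass. Over all genes tested, 24.2% were called longer and 27.3% shorter, so that 51.4% were called in either direction. At an unadjusted p under 0.05, 27 histone genes were longer and 1 shorter. The median log2 difference was 0.44 over the 55, against -0.08 over all genes tested.

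These counts carry a limit of the filter. A gene with peaks in the 3 shT2 samples alone could be tested only because it was covered there, so it had to differ, and 11 of the 23 genes called longer were of this kind. Of the 43 tested histone genes with a peak in both groups, 12 were longer and 1 shorter, with a median log2 difference of 0.19. The background for such genes was 22.8% longer and 25.6% shorter, with a median of -0.07. Genes also share peaks: the 23 hold 20 distinct sets of values. Distinct sets can still rest on the same region, as for H3C4, H2AC7 and H2BC7, for H3C1 and H4C1, and for H2BC8 and H2AC8. The 23 genes thus stand for fewer separate regions than the sets of values. At equal depth 21 of the 23 were called again.

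The samples of the 2 hairpins lay apart, shT2 above, at 29 of the 55 genes and, shT2 below, at 5, where all genes tested gave 27.6% above and 37.5% below. A peak in 3 of 3 shT2 and 0 of 3 shNC3 samples was found at 12 of the 55, all on chromosome 6, and the reverse pattern at 0. Over all genes tested these patterns made up 2.82 and 3.22%. Histone genes were covered over a shorter length than most: the median of the mean scaled covered length was 1.31 kb, against 4.05 kb over all genes tested. Among genes with a peak in both groups that were covered over less than 2 kb on average, 8 of 21 histone genes were longer in shT2 and 0 shorter, with 19 and 14.4% of all such genes called.

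**Figure D1:**
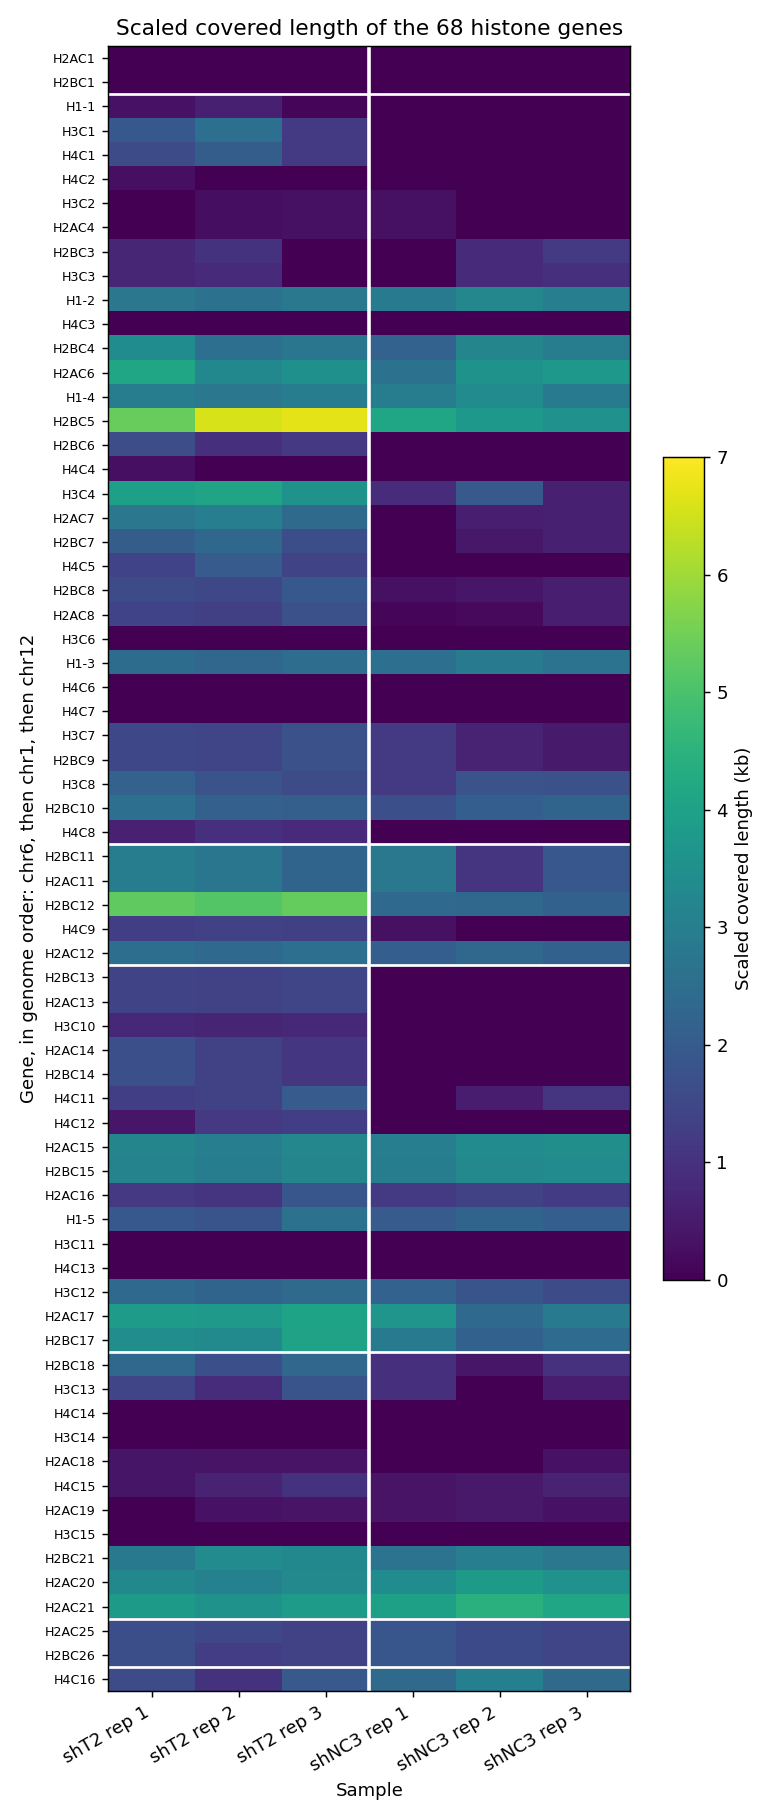
Scaled covered length in kb (colour) of each of the 68 genes (rows, in genome order, with white lines between stretches) in the 3 shT2 samples (left) and the 3 shNC3 samples (right). Several rows on chromosome 6 are dark (no peak) in every shNC3 sample and light in every shT2 sample, among them H4C5 and H2BC13, while H1-2 and H2AC21 are alike in all 6.

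By location, the chromosome 6 genes accounted for most of the difference. Their merged windows of 201.7 kb held 54.3, 54.2 and 54.4 kb of scaled covered length in shT2 against 30.9, 32.0 and 32.1 kb in shNC3, a ratio of the means of 1.71 (log2 0.78). In unscaled bases, 28.4% of the windows was under peaks in shT2 and 14.8% in shNC3. On chromosome 1 the samples had 8.50, 8.47 and 9.22 kb in shT2 against 7.18, 6.92 and 7.24 kb in shNC3, a ratio of 1.23. Both sums lay wholly higher in the shT2 samples, whereas H4C16 on chromosome 12 went the other way with 1.60, 1.02 and 1.97 kb in shT2 against 2.42, 3.02 and 2.42 kb in shNC3. These sums are descriptions, without a test. At equal depth the log2 ratio on chromosome 6 was 0.84.

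Of the 54 chromosome 6 genes, 44 were tested: 22 rose, 0 fell (0 also at an unadjusted p under 0.05), and 22 did not pass, with a median log2 difference of 0.68. Of the 22, 11 had no peak in any shNC3 sample. Among the 32 tested with a peak in both groups, 11 rose, against 22.8% of all such genes, and the median was 0.23. Among the 13 chromosome 1 genes, 10 were tested, 1 rose (H2BC18), 0 fell and 9 did not pass, with a median of 0.03. All 10 had a peak in both groups. Each chromosome 6 stretch that had peaks showed the same separation of samples. The 31 genes from H1-1 to H4C8 (chr6:26017032-26285534) held 31.1 ± 1.08 kb in shT2, against 18.2 ± 1.48 kb in shNC3 (SD, n = 3 each). The 5 genes from H2BC11 to H2AC12 (chr6:27132316-27147562) held 7.92 ± 0.331 kb in shT2, against 4.23 ± 0.899 kb in shNC3. The 16 genes from H2BC13 to H2BC17 (chr6:27807479-27893891) held 15.3 ± 1.39 kb in shT2, against 9.28 ± 0.475 kb in shNC3.

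The remaining chromosome 6 stretch, with H2AC1 and H2BC1 (chr6:25726063-25727345), had no peak in any sample. These 2 genes are known for expression in the testis. On chromosome 1, the 11 genes from H2BC18 to H2AC21 (chr1:149782689-149887965) held 7.21 ± 0.567 kb in shT2, against 5.48 ± 0.266 kb in shNC3 (SD, n = 3 each). H2AC25 and H2BC26 (chr1:228457364-228458558) held 1.52 ± 0.159 kb in shT2, against 1.63 ± 0.209 kb in shNC3, with overlapping samples.

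By histone type, the sums of the core histones lay apart between hairpins and those of H1 overlapped after scaling. The H1 windows held 10.4, 10.1 and 11.0 kb in shT2 against 10.4, 11.8 and 10.6 kb in shNC3. In unscaled bases they lay apart, with 10825, 11138 and 11299 bp in shT2 against 10375, 10412 and 10193 bp in shNC3. The log2 ratio of the H1 covered length was -0.06 scaled, 0.10 without scaling and 0.24 with 5 kb on each side of the gene. H4 windows held 9.26, 10.7 and 11.1 kb in shT2 against 3.11, 4.06 and 4.15 kb in shNC3, a ratio of 2.75. The ratio was 2.18 for H3 (14.4 ± 0.834 kb in shT2, 6.61 ± 0.572 kb in shNC3), 1.64 for H2B (42.7 ± 1.0 kb in shT2, 26.1 ± 0.746 kb in shNC3) and 1.37 for H2A (30.3 ± 0.853 kb in shT2, 22.1 ± 0.749 kb in shNC3; SD, n = 3 each). Windows of neighbouring types overlap, so these sums share peaks and are not independent.

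By gene, of 5 H1 genes, 0 rose and 0 fell (1 passed an unadjusted p under 0.05), and their median log2 difference was -0.07. H4 had 5 rising and 1 falling (H4C16) of 8 tested, H3 4 rising of 9, H2B 10 rising of 17 and H2A 4 rising of 16. With genes that had no shNC3 peak left out, the counts were 1 rising and 1 falling of 4 for H4, 2 rising of 7 for H3, 7 rising of 14 for H2B, 2 rising of 14 for H2A and 0 of 4 for H1, against 22.8% rising over all such genes. Of the core types, H4C16 was the sole gene called shorter. Whether the share of calls differs between histone types was not tested.

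**Figure D2:**
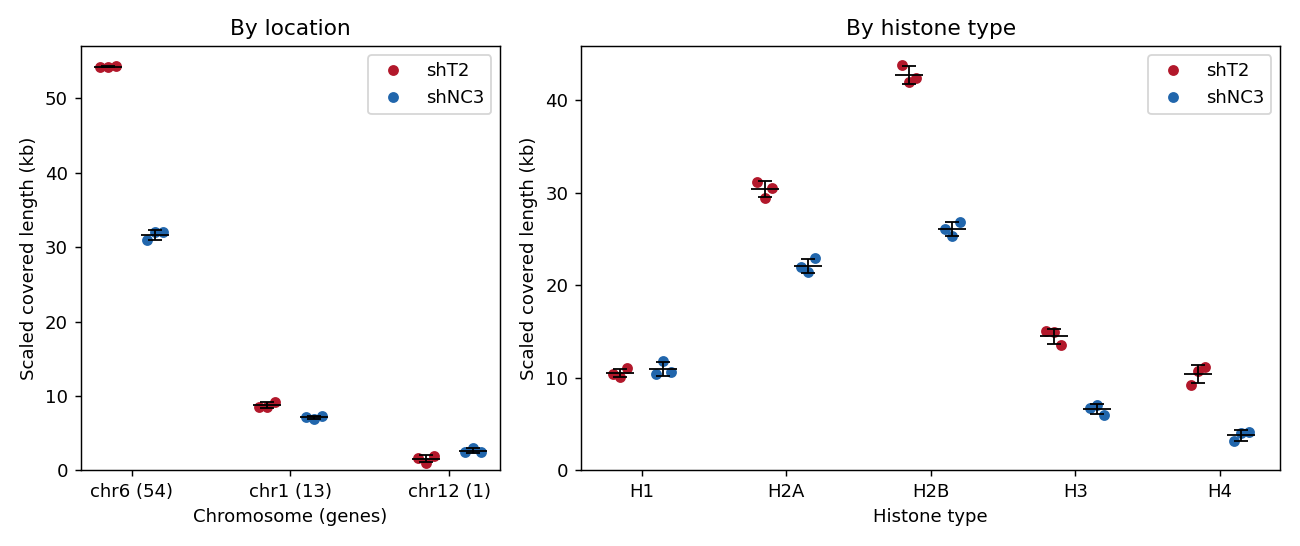
Scaled covered length (kb, axis from 0) summed over the merged windows of the genes by chromosome (left panel) and by histone type (right panel). Points are samples, bars the mean and SD of 3 samples, with shT2 left of shNC3. The groups are apart on chromosome 6 (54.3 ± 0.0612 kb in shT2, 31.7 ± 0.679 kb in shNC3) and, in these scaled values, overlap for H1.

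The following upstream sequences show the setting of these results. They are the 250 bases before the start of H4C5, which had peaks in shT2 samples alone; of H2BC13, whose upstream bases are shared with H2AC13 on the other strand; of H2BC12, which had peaks in both groups and more in shT2; and of H1-2, which was covered alike in all 6 samples. They are RefSeq sequences of GRCh38.p14, written 5′ to 3′ on the gene's strand. Capitals mark the TATA box TATAAA, the CCAAT box CCAAT and the octamer ATTTGCAT, each on either strand (so a capital TTTATA or ATTGG is the same box read on the other strand, and matches can overlap), and the recognition sites of the restriction enzymes used before the pulldown (here GAATTC of EcoRI and AATATT of SspI).
H4C5 (chr6:26204360-26204609, plus strand): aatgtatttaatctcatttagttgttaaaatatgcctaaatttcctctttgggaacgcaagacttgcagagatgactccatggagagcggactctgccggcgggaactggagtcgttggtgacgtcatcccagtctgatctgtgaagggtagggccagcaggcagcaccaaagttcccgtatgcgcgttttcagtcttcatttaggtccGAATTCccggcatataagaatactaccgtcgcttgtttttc
H2BC13 (chr6:27807930-27808179, minus strand): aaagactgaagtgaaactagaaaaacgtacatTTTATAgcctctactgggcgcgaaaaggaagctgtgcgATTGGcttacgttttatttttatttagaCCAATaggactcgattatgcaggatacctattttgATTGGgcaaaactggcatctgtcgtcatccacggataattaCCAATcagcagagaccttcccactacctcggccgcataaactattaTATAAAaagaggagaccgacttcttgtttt
H2BC12 (chr6:27146859-27147108, minus strand): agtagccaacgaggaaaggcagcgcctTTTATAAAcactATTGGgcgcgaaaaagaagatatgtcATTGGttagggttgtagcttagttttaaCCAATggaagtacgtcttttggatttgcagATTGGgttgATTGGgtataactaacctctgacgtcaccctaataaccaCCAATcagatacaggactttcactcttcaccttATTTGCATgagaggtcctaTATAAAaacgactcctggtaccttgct
H1-2 (chr6:26056471-26056720, minus strand): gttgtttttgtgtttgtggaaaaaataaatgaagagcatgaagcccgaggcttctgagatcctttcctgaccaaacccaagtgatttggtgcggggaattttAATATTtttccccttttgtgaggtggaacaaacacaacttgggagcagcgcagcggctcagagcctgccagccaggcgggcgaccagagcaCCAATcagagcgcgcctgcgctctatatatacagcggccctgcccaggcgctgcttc

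A RefSeq start and upstream sequence was found for 63 of the 68 genes (all but H4C1, H2AC12, H4C3, H3C12 and H3C11). Of the 63, 68.3% held TATAAA in these 250 bases, against 9% of 22199 RefSeq promoters of protein-coding genes. CCAAT was found in 84.1%, against 32.7%, and in every H1, H2A, H2B and H3 gene but in 3 of 13 H4 genes. The octamer was found in 39.7%, against 1.59%, in 14 of 18 H2B and 11 of 16 H2A genes and in no H1, H3 or H4 gene. Genes called longer in shT2 and the other tested genes held TATAAA in 68.2 and 63.3%, CCAAT in 86.4 and 90%, and the octamer in 50 and 40%, differences that were not tested. The median GC content of the upstream bases was 39.6% in the genes called longer, 44.0% in those whose start was under a peak in all 6 samples, and 62.0% in protein-coding promoters. A match is a description of the letters, not evidence of binding.

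The H4 genes, which encode the same core histone protein from many copies, included 4 of the 11 called genes with no shNC3 peak. H4C5, whose upstream bases hold none of the promoter motifs searched, had 1472, 2213 and 1477 bp under peaks in shT2 and was listed at 0 in each shNC3 sample. H4C1 had 1650, 2287 and 1232 bp in shT2 and 0 in each shNC3 sample. H4C8 had 659, 1081 and 855 bp in shT2 and 0 in each shNC3 sample. The windows of all 3 were covered in every shT2 sample, with no overlap between the hairpins, and no fold is given against a group at 0. Within the gene's own span H4C1 did not pass and H4C8 was not tested. The H4C8 start was under a peak in shT2 replicate 2 alone. The test called these 3 genes and 8 more at 0 in shNC3, but a gene tested through shT2 alone had to differ, so no p-value is given for them.

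H4C12 had 438, 1283 and 1319 bp in shT2 and 0 in each shNC3 sample. H4C9 had 1360, 1518 and 1346 bp in shT2 against 304, 0 and 0 bp in shNC3 (log2 difference 1.65, SE 0.27, limma adjusted p = 0.0021). H4C11, near to H4C12 by promoter sequence and chosen here after its values were seen, had 1359, 1515 and 2071 bp in shT2 against 0, 491 and 1017 bp in shNC3 and did not pass (log2 1.13, SE 0.42, limma adjusted p = 0.0583). The promoters of H4C11 and H4C12 are identical at 98.3% of 300 bases. The sources used here do not say how reads that fit several places were handled, so values of such near-copies are uncertain.

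H4C16 stands apart in place as well as in direction, being the single copy on chromosome 12. It had 1661, 1129 and 2015 bp under peaks in shT2 against 2405, 2678 and 2316 bp in shNC3 (log2 difference -0.64, SE 0.22, limma adjusted p = 0.0417). Every shT2 sample was lower than every shNC3 sample. The call was lost without scaling (limma adjusted p = 0.0707), at equal depth (limma adjusted p = 0.0571) and on leaving out any sample other than shT2 replicate 3 (adjusted p = 0.0671 to 0.122).

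Among the H3 genes, which encode the partner of H4 in the central tetramer, H3C1 and H3C10 had peaks in shT2 alone. H3C1 had 2001, 2812 and 1232 bp in shT2 and 0 in each shNC3 sample. Its start was under a peak in shT2 replicate 1 alone, and within its own span H3C1 was not tested. H3C10 had 799 bp in each shT2 sample and 0 in each shNC3 sample. These bases lie in the 2 kb flank of H3C10 and belong to the peak over H2BC13 and H2AC13. H3C4 was covered in both groups without overlap, with 4083, 4515 and 3674 bp in shT2 against 877, 1733 and 600 bp in shNC3 (log2 difference 1.48, SE 0.29, limma adjusted p = 0.00453). H3C7 and its neighbour H2BC9 share their peaks and had 1574, 1611 and 1773 bp in shT2 against 1176, 594 and 475 bp in shNC3. That difference was near the threshold (log2 0.72, SE 0.25, limma adjusted p = 0.0456) and was lost at equal depth (limma adjusted p = 0.063 for H2BC9), with a q-value limit of 1e-5 (0.675) and on leaving out any sample other than shNC3 replicate 1 (0.0971 to 0.131). The H2BC9 start was under a peak in shNC3 replicate 1 alone, and within its own span H2BC9 was not tested.

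Most H2A and H2B genes stand in pairs that are transcribed away from each other from a shared stretch of promoter. Of 12 pairs transcribed in this way with starts within 1000 bp, 11 join an H2A with an H2B gene and have 193 to 247 bases between the starts. The remaining pair, H3C7 with H2BC9, has 978. In 5 pairs, H3C7 with H2BC9 among them, both genes rose over their windows, and in 1, H2AC17 with H2BC17, H2BC17 alone passed. The pair H2BC13 and H2AC13, whose 243 bases between starts lie within the sequence shown for H2BC13, had 1493 bp under a peak in each shT2 sample and 0 in each shNC3 sample. H2AC14 and H2BC14 had 1784, 1528 and 1143 bp in shT2 and 0 in each shNC3 sample. The promoters of H2AC13 and H2AC14 are identical at 84.0% of 300 bases, and whether reads were split between these neighbours was not tested.

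H2AC7 had 2877, 3309 and 2468 bp in shT2 against 0, 527 and 600 bp in shNC3 (log2 1.92, SE 0.34, limma adjusted p = 0.00319). Its partner H2BC7 had 2145, 2577 and 1736 bp in shT2 against 0, 409 and 600 bp in shNC3 (log2 1.63, SE 0.34, limma adjusted p = 0.00616). Both share a region with H3C4, and their groups did not overlap, but within the gene's own span the H2BC7 difference was -0.06 and did not pass. H2BC8 had 1673, 1674 and 1977 bp in shT2 against 308, 374 and 567 bp in shNC3 (log2 1.22, SE 0.22, limma adjusted p = 0.00341). Its partner H2AC8 had 1460, 1461 and 1764 bp in shT2 against 95, 161 and 567 bp in shNC3 (log2 1.38, SE 0.29, limma adjusted p = 0.00633). Within the gene's own span the H2BC8 difference was 0.29 and did not pass (limma adjusted p = 0.277), and H2AC8 was not tested. Neither start was under a peak in any sample.

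Among the H2B genes, H2BC12, the one of the printed sequences that holds all 3 motifs, had 5492, 5650 and 5478 bp in shT2 against 2386, 2082 and 2082 bp in shNC3 (log2 1.04, SE 0.10, limma adjusted p = 0.000189). Its span holds H4C9, and the region there gave 1360, 1518 and 1346 bp in shT2 against 304, 0 and 0 bp in shNC3. A region within the gene gave 1510 bp in each shT2 sample and 0 in each shNC3 sample. The region at its start gave 2622 bp in each shT2 sample against 2082 bp in each shNC3 sample. H2BC5 had 5570, 7233 and 6876 bp in shT2 against 4101, 3297 and 3393 bp in shNC3 (log2 0.64, SE 0.11, limma adjusted p = 0.00273). In both genes every shT2 sample was higher than every shNC3 sample, and RefSeq gives them long spans of 8566 and 13229 bp, against a median of 494 bp over the 68 genes. H2BC6 had 1721, 1055 and 1178 bp in shT2 and 0 in each shNC3 sample. H2BC18, the chromosome 1 gene that rose, has a RefSeq span of 29682 bp and had 2439, 1879 and 2374 bp in shT2 against 960, 368 and 959 bp in shNC3 (log2 1.05, SE 0.26, limma adjusted p = 0.0129).

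H2BC17 had 3550, 3700 and 4140 bp in shT2 against 2902, 1930 and 2355 bp in shNC3 (log2 0.45, SE 0.14, limma adjusted p = 0.0323), and within the gene's own span it was -0.06 and did not pass. Its partner H2AC17 had 3991, 4160 and 4160 bp in shT2 against 3628, 2130 and 2788 bp in shNC3 and did not pass (log2 0.35, SE 0.15, limma adjusted p = 0.0857). Both genes were covered longer in every shT2 sample than in any shNC3 sample. The H2BC17 call was lost on leaving out any sample other than shNC3 replicate 1 (limma adjusted p = 0.0567 to 0.11).

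**Figure D3:**
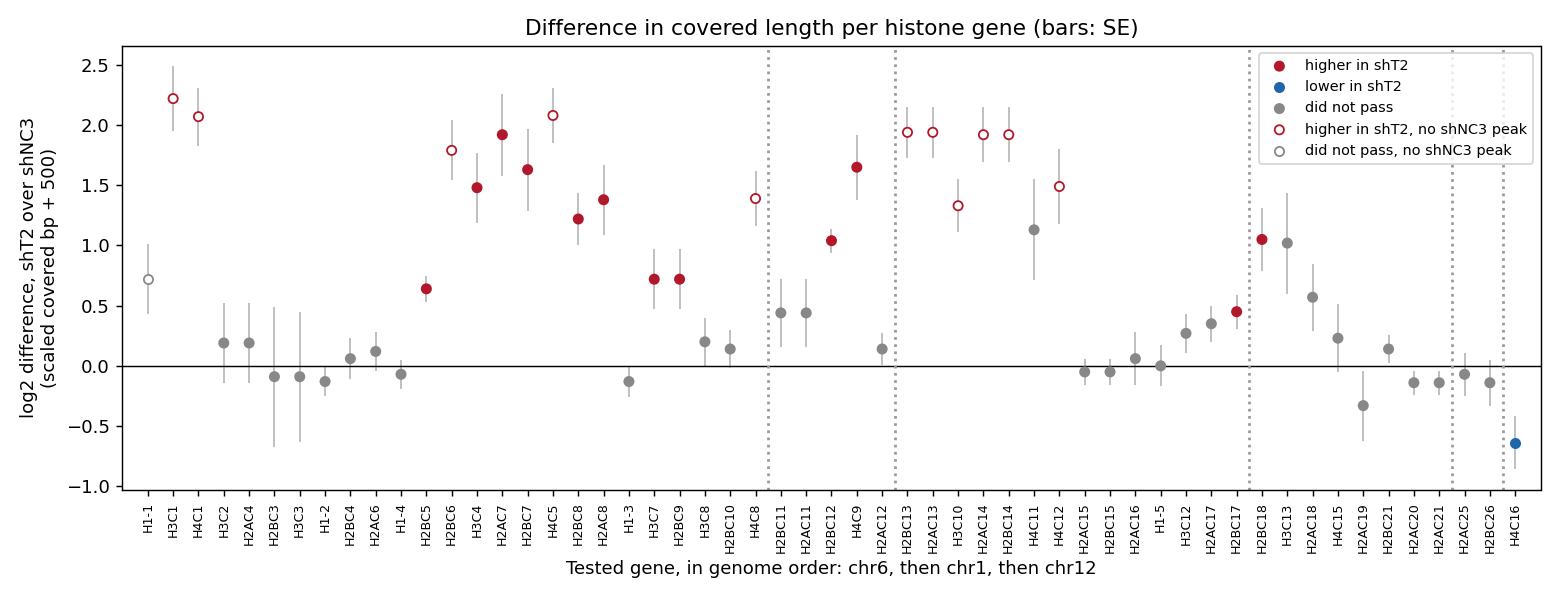
Log2 difference in scaled covered length + 500 bp, shT2 over shNC3 (vertical axis, bars SE), of the 55 tested genes in genome order, with dotted lines between stretches. Open circles are genes with no peak in any shNC3 sample, whose plotted value depends on the added 500 bp. Red points (called longer) lie among the chromosome 6 genes except for H2BC18, and the blue point is H4C16.

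The other long-covered genes did not pass the test. H2AC21 had 3942 bp and H2AC20 had 3388 bp under peaks in each of the 6 samples. H2AC6 had 4293, 3585 and 3585 bp in shT2 against 2600, 3170 and 3585 bp in shNC3 (log2 0.12, SE 0.16, limma adjusted p = 0.521). H2AC15 had 3307 bp in each shT2 sample against 2976, 2986 and 3307 bp in shNC3 (limma adjusted p = 0.722), and its partner H2BC15 had 3248 bp in each shT2 sample against 2917, 2927 and 3248 bp in shNC3 (limma adjusted p = 0.735). In these 3 genes the groups touched or overlapped.

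The H1 genes, named here after their values were seen except for H1-4, encode the linker histones. H1-2 had 2876 bp and H1-3 had 2550 bp under peaks in each of the 6 samples. H1-4 had 3051 bp in each shT2 sample against 2952, 2989 and 2770 bp in shNC3 (log2 -0.07 after scaling, SE 0.12, limma adjusted p = 0.617). H1-5 had 1997, 1997 and 2716 bp in shT2 against 1997 bp in each shNC3 sample, and also did not pass (limma adjusted p = 0.985). H1-1 differed in pattern, with 351, 664 and 106 bp in shT2 and 0 in each shNC3 sample, and did not pass. The 4 genes with the same number of bases in every sample (H1-2, H1-3, H2AC20 and H2AC21) have log2 differences of -0.13 to -0.14 from the scaling alone. Over all genes tested, 2.83% had the same number of bases in every sample.

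No peak in any sample was found at 11 genes: H4C14, H3C14, H3C15, H2AC1, H2BC1, H4C3, H3C6, H4C6, H4C7, H3C11 and H4C13. H4C2 and H4C4 had a peak in shT2 replicate 1 alone, of 291 and 294 bp, and were not tested. By upstream sequence H3C14 matches H3C15, H4C14 matches H4C15 and H2AC18 matches H2AC19 at 100.0% of the compared bases. The peaks at H2AC18, H2AC19 and H4C15 were 288 to 424 bp long each where present, and none of these genes passed the test. Their values are uncertain for the reason given for H4C11 and H4C12.

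Merging the peaks of all samples gave 54 separate regions in the windows of the 68 genes. Of these, 33.3% were present in all 6 samples, against 20.6% of 75758 regions genome-wide. A further 12, or 22.2%, were present in 3 of 3 shT2 and 0 of 3 shNC3 samples, against 5.87% genome-wide, and 0 showed the reverse, against 2.86%. On chromosome 6 the share of shT2-only regions was 25.6% of 43. The list of 12 includes chr6:26203760-26205545 over H4C5, chr6:26183107-26184827 over H2BC6, chr6:27807357-27808849 over H2BC13 and H2AC13, and chr6:27142097-27143606 within H2BC12. The region over H2BC13 and H2AC13 reaches the flank of H3C10 but not the gene. At equal depth all 12 were still present in 3 of 3 shT2 samples.

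The shT2-only regions were of middling strength. Their summit fold enrichment, the authors' value for each peak, had a median of 5.92, 6.08 and 5.14 in the shT2 samples, at the 64.2, 68.8 and 52.1 percentiles of those lists. The 18 regions present in all 6 samples had a median at the 88.2, 86.9 and 90.6 percentiles in shT2 and at the 80.2, 76.8 and 75.8 percentiles in shNC3. The peak over H1-2 reached a fold of 39.71, 31.73 and 28.63 in shT2 and 40.86, 38.08 and 36.09 in shNC3. The peak over H1-3, with the same length in all samples, had a fold of 22.11, 16.14 and 19.45 in shT2 and 7.17, 8.50 and 10.21 in shNC3, so that equal length did not mean equal height. Folds were taken over backgrounds that differ between the lists and are set side by side without a test. One tRNA gene lay in these windows, inside 1 of the shT2-only regions.

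Some peak ends recurred in every sample. Of the 18 regions present in all 6 samples, 5 had the same first and last base in every sample (27.8%, against 4.66% of such regions genome-wide), and 9 of the 68 genes lie at them. They include chr6:26051502-26056615 over H1-2, chr6:26232826-26235375 over H1-3 and chr1:149886024-149890232 over H2BC21, H2AC20 and H2AC21. DNA had been cut with BsrGI, EcoRI, HindIII, SspI and XbaI before the pulldown, and 21 of the 63 RefSeq promoter windows of 300 bases hold a site of 1 of these 5 enzymes. The region over H1-2 ends at base 26056615 in all 6 samples, inside the SspI site at chr6:26056613-26056618 that is in capitals in the H1-2 sequence above.

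Few peak ends fell in promoter windows that hold a site: 3, 2 and 6 distinct ends in shT2 and 2, 1 and 2 in shNC3, with the end at H1-2 among them in each sample. Each lay within 10 bases of the site. Over all protein-coding promoter windows with a site the share of distinct ends so close was 94.1, 95.0 and 95.1% in shT2 and 96.9, 95.4 and 96.3% in shNC3, where 10.1% of the bases of those windows lie within 10 bases of a site. A further 4, 6 and 6 ends in shT2 and 3, 4 and 3 in shNC3 lay in histone promoter windows that hold no site. At H2AC7, a peak ended at base 26199251 in shT2 replicates 1 and 3, inside the EcoRI site at chr6:26199247-26199252. In shNC3 replicate 3 a different peak, which ran over the start of H2BC7, had its first base at 26199493. That base lies inside the SspI site at chr6:26199490-26199495. At H4C5, in contrast, the shT2 peaks ran across the EcoRI site at chr6:26204569-26204574. Sites outside the promoter windows were not mapped, and the part of the cut sites in the covered lengths was not tested.

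The start of the gene was under a peak more often in shT2 samples. Of the 63 starts, 31, 32 and 30 were under a peak in shT2 (49.2, 50.8 and 47.6%), against 20, 20 and 22 in shNC3 (31.7, 31.7 and 34.9%). Over 15843 protein-coding genes with a RefSeq start, the shares were 22.6, 24.6 and 21.9% in shT2 and 26.8, 23.0 and 25.2% in shNC3. Starts covered in all 6 samples numbered 17, against 14.3% of all coding starts, of which 4 belonged to H1, 5 to H2A and 8 to H2B genes and 0 to H3 or H4 genes. Starts covered in 3 of 3 shT2 and 0 of 3 shNC3 samples were those of H2AC13, H2AC14, H2BC13, H2BC14, H3C4, H4C5 and H4C9, 7 of 63, against 1.09% of all coding starts, and 0 showed the reverse, against 1.88%.

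Along the genes, both hairpins gave a profile of the same outline. The share of the 63 genes under a peak was highest 250 bp before the start, at 55.6% in shT2 and 34.4% in shNC3 (means of 3 samples). It was 20.6% in shT2 and 12.7% in shNC3 at 2000 bp before the start, and 19.0% in shT2 and 11.6% in shNC3 at 2000 bp after it. Neighbouring genes lie within these distances, so the profile counts some peaks for more than 1 gene. This holds near the start too, as 193 to 978 bases lie between the starts of the 12 pairs.

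**Figure D4:**
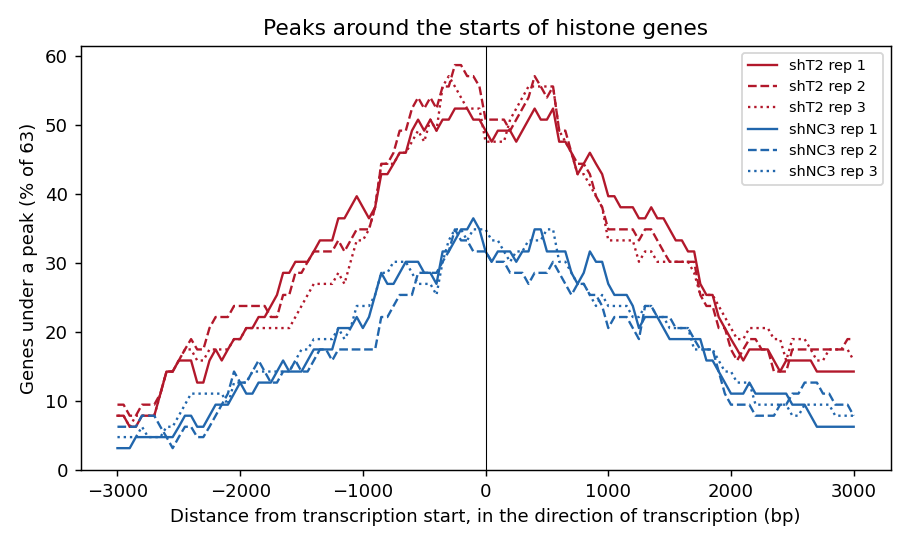
Share of the 63 histone genes with a RefSeq start that were under a peak (vertical axis, %), by distance from the start in the direction of transcription (horizontal axis, bp), 1 line per sample, shT2 in red and shNC3 in blue. From 2000 bp before to 2000 bp after the start most of each shT2 line runs above the shNC3 lines, with the largest mean shares of 55.6% in shT2 and 34.4% in shNC3.

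Neighbouring genes and related genes give the setting. Of 20 other protein-coding genes within the chromosome 6 span, 11 had no peak and 7 were tested, with 1 rising, 1 falling and a median log2 difference of 0.07. BTN3A1, an immune surface protein of the butyrophilin family, rose (2859, 3307 and 3042 bp in shT2 against 1073, 640 and 2238 bp in shNC3, log2 0.95, SE 0.30, limma adjusted p = 0.0334). BTN2A1, of the same family, fell (3897, 4399 and 3991 bp in shT2 against 4459, 4691 and 4688 bp in shNC3, log2 -0.30, SE 0.09, limma adjusted p = 0.0332). At equal depth neither call held (limma adjusted p = 0.0615 for BTN3A1 and 0.0609 for BTN2A1). Whether these neighbours differ from the histone genes was not tested.

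Histone variants, which replace the bulk histones outside S phase or in particular tissues, were represented by 18 matched genes outside the rule. Of these 10 were tested, 1 rose and 1 fell, with a median log2 difference of -0.04. MACROH2A2, a large H2A variant of inactive chromatin, had 14336, 15734 and 17272 bp in shT2 against 10089, 8081 and 11818 bp in shNC3 (log2 0.49, SE 0.12, limma adjusted p = 0.0113). H2AZ2, a variant of H2A found near gene starts, had 6129, 8887 and 5885 bp in shT2 against 9357, 8347 and 7701 bp in shNC3, with overlap (log2 -0.43, SE 0.13, limma adjusted p = 0.0302). The H2AZ2 call was lost without scaling (limma adjusted p = 0.232). H2AZ1 and H3-3B had 4281 and 5792 bp in each of the 6 samples.

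Of 21 genes of the machinery of histone messages, 19 were tested, of which 6 rose, 4 fell and 9 did not pass, with a median log2 difference of -0.01 and a background of 24.2% rising and 27.3% falling. For these histone gene expression factors, 3 rose and 1 fell at a minimum fold of 5, 2 rose at gene ends alone, and 2 fell without scaling, with the replicate block and at equal depth. When 1 sample was left out, 2 fell without shT2 replicate 2, shT2 replicate 3 or shNC3 replicate 2, and 1 fell without shNC3 replicate 3. NPAT, the coactivator of histone gene transcription in the histone locus body, rose (3492, 3254 and 2368 bp in shT2 against 846, 346 and 1164 bp in shNC3, log2 1.40, SE 0.28, limma adjusted p = 0.00524). CPSF3, the nuclease that cuts the 3′ end of the message, rose (16450, 18987 and 16279 bp in shT2 against 7662, 8163 and 8563 bp in shNC3, log2 0.89, SE 0.08, limma adjusted p = 0.000141). NCBP2, a subunit of the nuclear cap-binding complex (log2 0.35, limma adjusted p = 0.00328), and CRAMP1 (log2 0.38, limma adjusted p = 0.0143) were the other 2 of the 4 with the smallest p.

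Coverage was shorter in shT2 at UPF1, a helicase of message decay (19641, 22563 and 20153 bp in shT2 against 27144, 24505 and 25532 bp in shNC3, log2 -0.46, SE 0.04, limma adjusted p = 0.000206). LSM10, a subunit of the U7 particle that guides 3′ end cutting, was listed at 0 in each shT2 sample, against 2138, 343 and 836 bp in shNC3, and was tested through shNC3 alone. SLBP, which binds the stem-loop (log2 -0.20, limma adjusted p = 0.0255), and SRRT (log2 -0.20, limma adjusted p = 0.025) fell by small amounts, and neither call held without scaling (limma adjusted p = 0.599 for SLBP and 0.245 for SRRT). Peaks over these genes do not measure their RNA or protein.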

How the data were processed

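DRIP-seq peaks were analysed in SH-SY5Y cells with shT2 or shNC3 (3 samples each), grouped by sample title. Per the submitters' processing notes, the tools were Bowtie2 2.4.4, SAMtools and MACS2 2.2.6 with build hg38. Each sample has its own peak list, and the control used in calling is not stated in the sources used here. The deposited lists give each peak's position, an integer score (not used), its summit fold enrichment (linear ratio) and the −log10 p-value and q-value, as the authors' caller wrote them. All listed q-values were at most 0.01. The per-peak values served to rank or filter peaks within a list and to recover library depth.

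Gene spans, starts and promoters came from RefSeq (GRCh38.p14). Covered length (bases under merged peaks, gene span with flanks of 2 kb) was divided by the sample's total and multiplied by the average total of all 6. The log2(scaled bp + 500) of all 11784 protein-coding genes covered in at least 3 samples entered limma 3.58.1 under R 4.3.3 (functions lmFit and eBayes, trend and robust options on, no covariate), with p-values adjusted after Benjamini-Hochberg and called below 0.05. The fit was tested on simulated data. A gene with no peak in a hairpin is described without a fold. Sums over genes have no test. Reducing lists to equal depth, the cut-site search and leaving samples out with 2 of the remaining 5 covered were added after the data had been seen. The members and lists were chosen with earlier results of these data known. Genes named with values are members past the threshold, the 10 members with the longest mean coverage, and up to 4 per direction of each other list with the smallest p. Of the variant list, H2AW is now a synonym of H2AC25 and was left out. Some marker genes are not reported here. Same-numbered samples did not deviate together (correlations of -0.024, -0.064 and -0.008). Scaling, peak threshold, window, pseudocount, filter, replicate block and left-out samples were varied.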

Additional observations from a re-analysis of the deposited data

How the results depend on the processing

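The count of 23 histone genes with longer coverage in shT2 was 21 to 26 under no scaling, a minimum fold of 5, a stricter q-value, lists of equal number, ends only, pseudocounts of 100 and 2000, a filter of 1 sample, the replicate block and equal depth. It was 13 with the gene span alone, where 6 of the 23 were not tested, and 9 with genes covered in all 6 samples, where 14 were not tested. Leaving out 1 sample gave 9 to 25: each shT2 sample left out gave 9, where 11 of the 23 failed the filter and others lost their call, and 20 to 25 were called when 2 covered samples of the remaining 5 sufficed. With the replicate number as a block, 22 were longer, 20 of them among the 23, and the count of shorter genes was 0. The numbers do not pair the samples.

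The count of 1 shorter gene (H4C16) was 0 without scaling, at a minimum fold of 5, with lists of equal number, with the gene span alone, with a pseudocount of 100 and at equal depth, and 0 to 1 when 1 sample was left out. The log2 ratio on chromosome 6 (0.78) was 0.93 without scaling, 1.02 at a minimum fold of 5, 0.88 with the stricter q-value, 0.86 with lists of equal number, 1.02 with the gene span alone, 0.84 at equal depth and 0.76 to 0.79 when 1 sample was left out. On chromosome 1 (0.30) it was 0.45 without scaling, 0.42 at a minimum fold of 5 and 0.38 with the stricter q-value, and for the other loci covered length, H4C16 alone (-0.77), it was -5.7 with the gene span alone. In shT2 the H4C16 start was under a peak in replicate 3 alone. The gene-level difference of H4C16 with the gene span alone was -0.39 and did not pass (limma adjusted p = 0.286). Direction turned for H2BC7 and H2BC17 with the gene span alone (-0.06 each), and for CRAMP1 (-0.25) and H2AZ2 (0.28) at gene ends alone. Over 44 named genes, 849 of 994 recomputed values kept their direction and side of the threshold, 139 no longer passed and 2 newly passed. Without scaling the median of all genes tested was 0.06, against -0.08. The cause of these changes was not tested except where stated. With 3 samples a hairpin, lists without reads and unequal depth, small differences could not be resolved.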
